A study of Mus musculus with 24 samples.

Results

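A group of 10 surface receptors that mark the resting state of microglia, the resident macrophages of the brain, were followed across the genotypes and ages of a C9orf72 knock-out series. The receptors were chosen by gene symbol, and all 10 of 10 symbols (P2ry12, P2ry13, Gpr34, P2ry6, P2rx7, Adora3, Cx3cr1, Csf1r, Tgfbr1 and Tgfbr2) were found among the 20636 genes that the expression tables list. All 10 passed the filter on low values at both ages, a mean of at least 1 TPM (transcripts per M transcripts, with M for mega). The rule itself uses no measured value.

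Microglia came from brains of C57BL/6J mice that were homozygous (HOM) or heterozygous (HET) for a knock-out of C9orf72, named 3110043O21Rik in the tables, or wild type (WT), aged 3 or 17 months; each of the 6 groups held 4 animals. The labels name no treatment and do not say how the knock-out allele was made or in which cells the gene is lost. Cells were enriched with CD11b magnetic beads after removal of meninges and myelin, and CD11b is carried by other myeloid cells too. Each library is from 1 animal, named here by genotype and animal number.

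P2RY12, P2RY13 and P2RY6 are G protein-coupled receptors for nucleotides. P2RY12 senses ADP and guides microglial processes to sites of damage, P2RY13 is a related ADP receptor, and P2RY6 binds UDP and is tied to phagocytosis. GPR34 is a receptor for lysophosphatidylserine, P2RX7 an ATP-gated ion channel that can start inflammasome signalling, and ADORA3 an adenosine receptor. CX3CR1 binds the chemokine fractalkine (Cx3cl1) from neurons. CSF1R binds CSF1 and IL-34 and is needed for microglial survival, and TGFBR1 and TGFBR2 form the receptor for TGF-beta, a factor that maintains the microglial identity.

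P2ry13 (ENSMUSG00000036362.2, chr3:59207892-59210882, minus strand) and P2ry12 (ENSMUSG00000036353.13, chr3:59216272-59262871, minus strand) are neighbours, and both lie within the span of Med12l on the plus strand, by the GENCODE annotation of GRCm38. Gpr34 (ENSMUSG00000040229.11, chrX:13632089-13640858, plus strand) overlaps Cask on the minus strand. Tgfbr1 (chr4:47353222-47414931) shares chromosome 4 with the targeted gene, at a distance of 12.1 Mb. The libraries were stranded per the labels' protocols, but whether counting used the strand is not given in the sources used here. Reads of Adora3 can be shared with Tmigd3, which overlaps it on the same strand. Cx3cr1 overlaps Gorasp1, Csrnp1 and Xirp1 on its own minus strand, and Wdr48 and Ttc21a on the plus strand. Csf1r overlaps Hmgxb3 on the opposite strand.

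The 250 bases before the start of P2ry12 and of P2ry13 are shown because these neighbours, with Gpr34, were the receptors whose change in HOM animals differed between the ages in RPKM. They are RefSeq sequences of GRCm38.p6 on the minus strand, P2ry12 at chr3:59262986-59263235 and P2ry13 at chr3:59210883-59211132, with matches to AGGAAG, the core of sites of the macrophage factor PU.1, in capitals.
P2ry12: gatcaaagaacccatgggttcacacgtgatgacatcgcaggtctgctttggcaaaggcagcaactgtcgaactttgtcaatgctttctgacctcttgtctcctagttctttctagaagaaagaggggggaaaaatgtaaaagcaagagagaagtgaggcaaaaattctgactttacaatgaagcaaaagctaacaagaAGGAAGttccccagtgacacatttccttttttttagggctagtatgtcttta
P2ry13: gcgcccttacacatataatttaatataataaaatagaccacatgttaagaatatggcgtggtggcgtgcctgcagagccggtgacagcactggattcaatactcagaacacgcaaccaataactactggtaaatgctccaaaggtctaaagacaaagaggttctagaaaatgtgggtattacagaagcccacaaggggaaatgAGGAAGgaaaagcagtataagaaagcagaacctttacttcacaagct
The motif was searched on both strands as AGGAAG and CTTCCT. It was present in 6 of the 9 windows listed for 7 of the receptors and in 29.5% of 32851 RefSeq windows of the same length. The motif was chosen after the windows were seen, and a match is a description of letters, not of a bound site. Gpr34, P2ry6 and Csf1r are named only.

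The targeted gene checked the genotype labels. At 3 months it stood at 0.139 ± 0.0918 TPM in HOM, 9.73 ± 1.75 in HET and 22.8 ± 2.23 in WT animals (SD, n = 4 each), and at 17 months at 0.0360 ± 0.0158, 7.20 ± 1.53 and 14.9 ± 1.48 TPM in the same order. Each mutant group lay wholly below its WT group (exact two-sided permutation p = 0.0286, the smallest that 4 against 4 allows). Libraries held 30.6 to 33.8 M alignments in HOM, 26.3 to 28.9 M in HET and 21.8 to 28.4 M in WT animals at 3 months. At 17 months the ranges were 40.7 to 46.4 M, 30.6 to 37.1 M and 16.7 to 35.7 M in the same order. The listed genes summed to between 78.9% (HET-7796) and 90.7% of the total that the TPM unit implies. Sex is not labelled. By Y-linked transcripts, 2 HOM, 4 HET and 1 WT animals were male at 3 months, and 3 HOM, 0 HET and 1 WT at 17 months. All 15 microglia markers of a list without the receptors (Tmem119, Sall1 and others) were above 0 in every group.

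The receptors covered a wide range of levels, and the order given here is that of TPM, a measure per transcript length. In WT microglia of 3 months Csf1r stood at 6536 ± 412 TPM, Cx3cr1 at 3523 ± 236, P2ry12 at 2313 ± 418 and P2ry13 at 1129.8 ± 137 (SD, n = 4). Those are ranks 9, 23, 40 and 98 among the genes of the table, so 4 receptors were among its most abundant transcripts. Gpr34 followed at 867 ± 245 TPM, P2ry6 at 279 ± 18.96, Tgfbr2 at 271 ± 16.9, Tgfbr1 at 198 ± 27.1, P2rx7 at 156 ± 13.4 and Adora3 at 114 ± 8.40. Among neighbours in that order, P2ry13 and Gpr34 overlapped between animals, and so did P2ry6 and Tgfbr2. The other neighbours did not overlap. RPKM, also per length, gave another order for Tgfbr1. It stood at 213 RPKM in these WT animals (195 to 240), above Tgfbr2 (122 to 133) and P2ry6 (113 to 129). At 17 months the order in WT animals ran Csf1r, Cx3cr1, P2ry12, P2ry13, Gpr34, Tgfbr2, P2ry6, P2rx7, Tgfbr1 and Adora3, from 3713 ± 553 TPM for Csf1r to 77.1 ± 9.41 for Adora3. In HOM animals of 17 months none of the neighbours among the 5 receptors from Csf1r to Gpr34 overlapped, since Gpr34 (at most 439 TPM) lay below P2ry13 (at least 517).

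**Figure D1:**
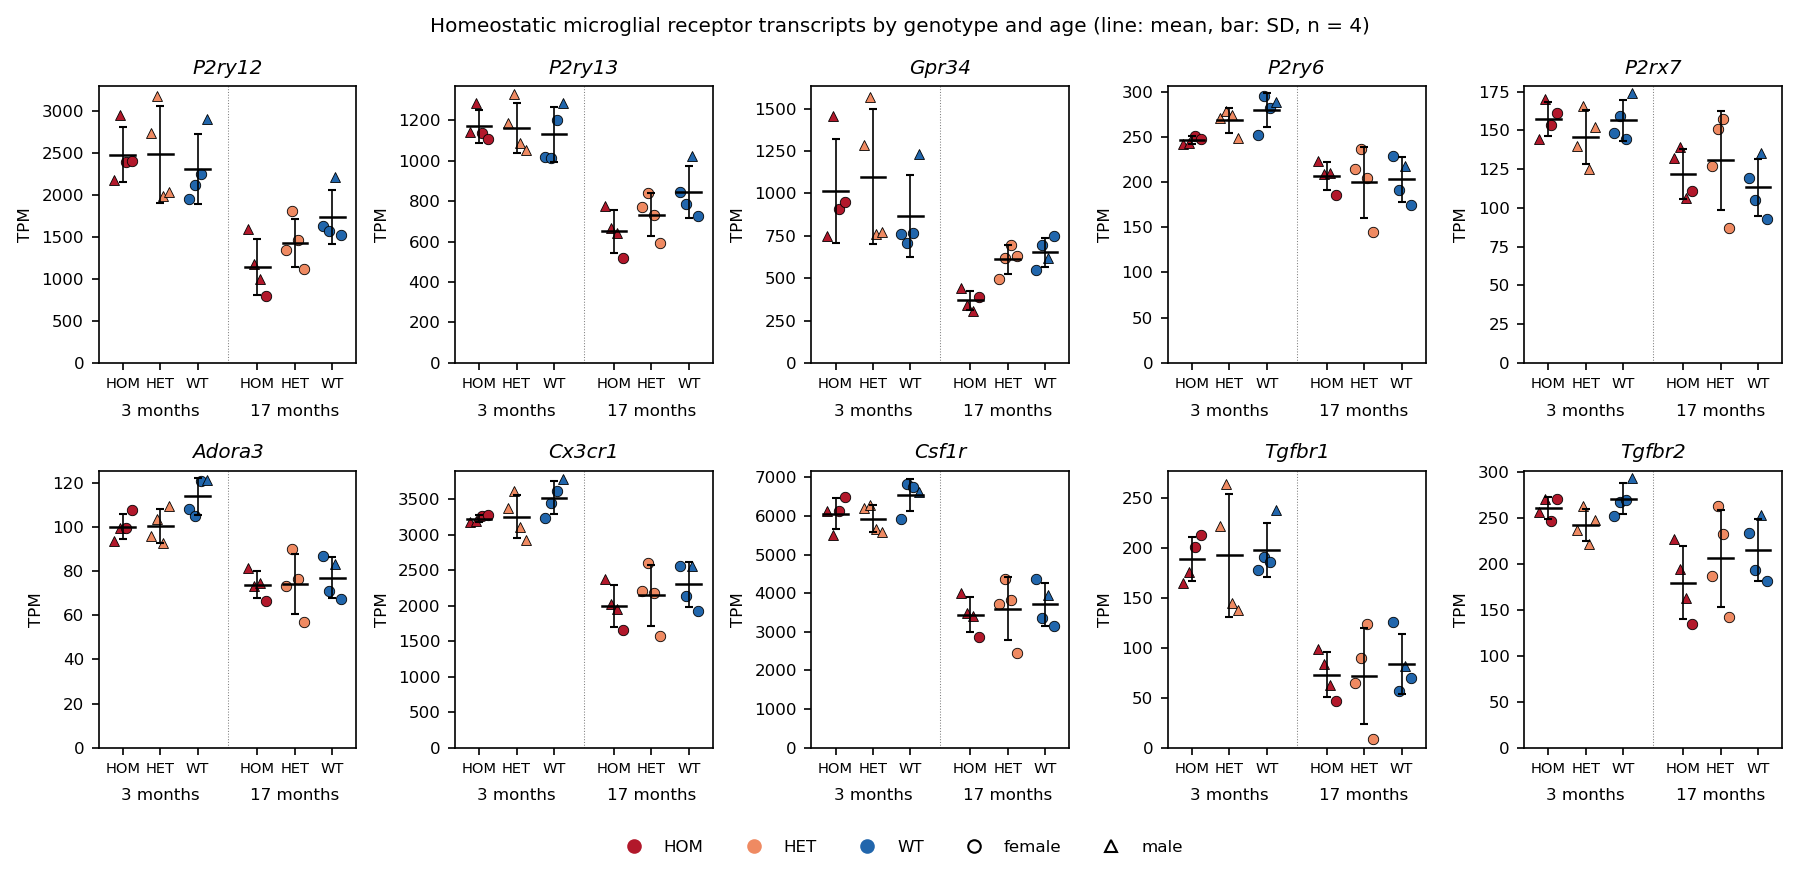
TPM of each receptor in each animal, by genotype and age, with 1 panel per gene on its own linear axis from 0. Lines are means and bars SD (n = 4), circles are females and triangles males. Gpr34 at 17 months is the panel in which the 4 HOM animals (308 to 439 TPM) lie below all HET (497 to 698) and WT animals (550 to 747).

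At 17 months Gpr34 was the only receptor whose fall in homozygotes passed the test in TPM as deposited. Gpr34 was at 439 TPM in HOM-7835, 340 in HOM-7893, 308 in HOM-7899 and 388 in HOM-7901. It was at 497 in HET-7791, 619 in HET-7794, 698 in HET-7795 and 630.1 in HET-7796, and at 550 in WT-7782, 695 in WT-7783, 620.5 in WT-7785 and 747 in WT-7943. All 4 HOM animals were lower than every HET and every WT animal, whereas HET and WT overlapped. The HOM mean was 369 ± 57.5 TPM, against 611 ± 83.8 in HET and 653 ± 86.2 in WT (SD, n = 4 each), or 56.5% of the WT mean and 60.4% of the HET mean. On the log2(TPM + 1) scale, on which all changes here are given, HOM against WT was -0.83 (SE 0.14, 95% interval -1.12 to -0.53, limma adjusted p = 0.0349). HOM against HET was -0.73 (SE 0.14, limma adjusted p = 0.0138), and HET against WT -0.10 (SE 0.14, adjusted p = 0.970). HOM against WT and HET against WT share the WT animals.

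Gpr34 was the 1 receptor of 10 called in HOM against WT at 17 months, where 0.712% of all 11792 genes tested were called (0.246% lower). It was also the only one of the 10 called in HOM against HET, where 1.86% of genes were called (0.17% lower). It was the only receptor whose animals did not overlap in these comparisons. All 4 HOM animals were lower for 4.05% of genes against WT and for 1.17% against HET. The median change of the 10 receptors was -0.19 in HOM against WT and -0.08 in HOM against HET, beside 0.05 and 0.07 over all genes. The 15 other microglia markers had medians of -0.17 and -0.11 in the same comparisons. In HET against WT 0 receptors were called by limma in TPM, where 0.237% of all genes were called. At an unadjusted p under 0.05 there were 0 receptors, beside 9.24% of all genes. In RPKM the count called was 0 too, beside 0.152% of all genes.

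The call for Gpr34 was near its threshold. Leaving out 1 animal at a time kept the change in HOM against WT between -0.91 and -0.74, but the adjusted p ran from 0.0231 to 0.150 and passed in 6 of 12 fits. With no filter on low values the change was -0.83 with an adjusted p of 0.0584 by limma. The call was also lost without HOM-7893, HOM-7899, HOM-7901, WT-7782, WT-7783 or WT-7943. HOM against HET passed in 9 of 12 such fits and was lost without HET-7795, HOM-7893 or HOM-7899.

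Sex was unevenly spread over the old groups, and Gpr34 lies on the X chromosome. Within females, the 1 HOM animal stood at 388 TPM, against 497 to 698 in 4 HET and 550 to 747 in 3 WT females. Within males, the 3 HOM animals ranged from 308 to 439 TPM, against 620.5 in the 1 WT male. Each sex held only 1 animal in 1 of the compared groups, so no test was made within sex. With a sex term in the limma fit, the change was -0.78 in HOM against WT (adjusted p = 0.0799) and -0.65 in HOM against HET (adjusted p = 0.125), so neither call was kept.

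Other measures also differed between the old HOM and WT groups. HOM libraries had 40.7 to 46.4 M alignments, against at most 35.7 M in WT. Summed monocyte markers (11 genes) reached 356 to 1449 TPM in HOM, against 129 to 278 in WT, and summed endothelial and mural markers (11 genes) 368 to 488 TPM, against 250 to 323. Choroid plexus and ependyma markers (7 genes) summed to 1535 to 4372 TPM in HOM, against 314 to 1449 in WT. Oligodendrocyte markers (9 genes) summed to 805 to 2022 TPM in HOM, against 2357 to 6593 in WT. Neutrophil markers (10 genes found), which overlapped, summed to 2226 to 5975 TPM in HOM, against 412 to 2499.8 in WT. In HET animals, in which Gpr34 overlapped WT, oligodendrocyte markers summed to 419 to 1245 TPM and neutrophil markers to 550 to 11168. Monocyte markers summed to 148 to 527 TPM in HET, endothelial and mural markers to 154 to 236, and choroid plexus and ependyma markers to 983 to 1400. None of the genes of these lists was at 0 in all animals of an old HOM or WT group. Their part in the change of Gpr34 was not tested. In bulk RNA, fewer cells of a type and less RNA per cell cannot be told apart.

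The microglia markers themselves overlapped, at 44464 to 55127 TPM in old HOM and 49347 to 57994 in old WT animals. Scaled to those 15 markers, Gpr34 stood at 7.65 ± 0.698 TPM per 1000 marker TPM in HOM, 11.4 ± 2.07 in HET and 12.2 ± 2.39 in WT animals (SD, n = 4 each). HOM animals (6.68 to 8.30) again did not overlap HET (8.77 to 13.5) or WT (9.48 to 15.1). The scaled Gpr34 level in HOM was 0.627 of that in WT. Scaled Csf1r overlapped, at 71.7 ± 7.37 in HOM and 68.6 ± 6.41 in WT, and so did scaled Cx3cr1, at 41.6 ± 4.41 and 42.5 ± 3.81.

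**Figure D2:**
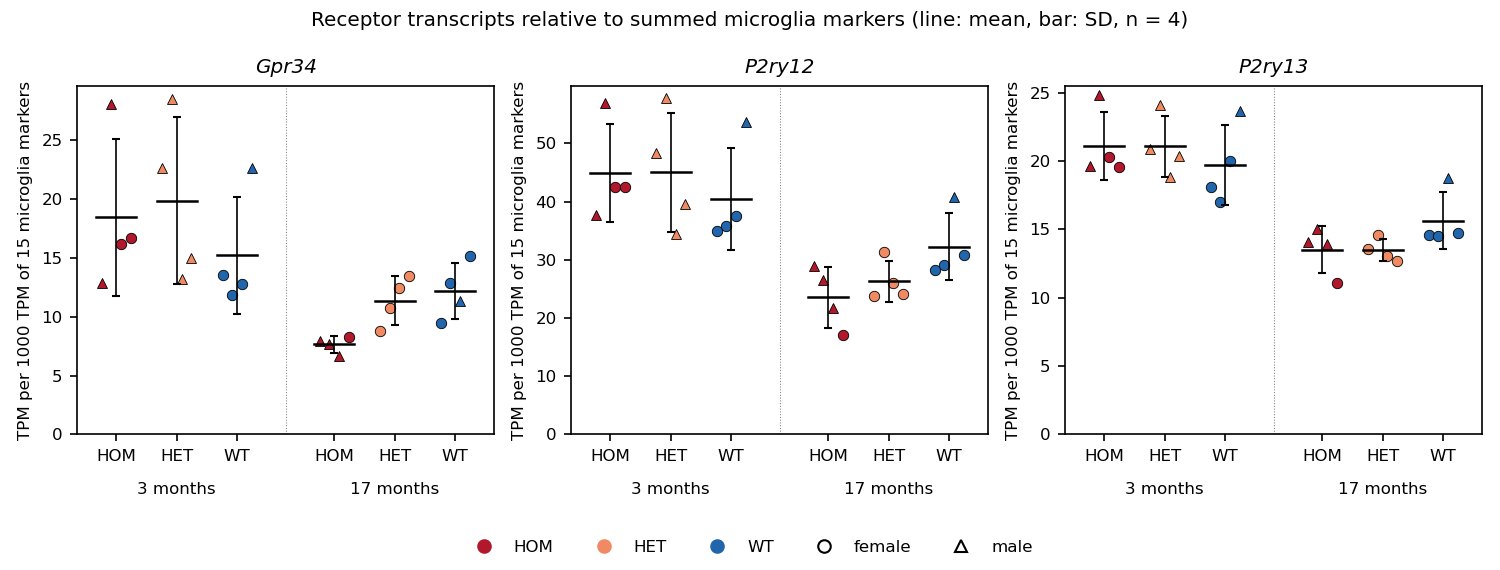
Gpr34, P2ry12 and P2ry13 as TPM per 1000 TPM of 15 summed microglia markers, in each animal by genotype and age; lines are means, bars SD (n = 4). Gpr34 at 17 months separates HOM (6.68 to 8.30) from HET and WT, while the other 2 receptors overlap between HOM and WT.

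The ADP receptors P2ry12 and P2ry13 had lower means in old homozygotes but did not pass the test in TPM as deposited. P2ry12 was at 1594 TPM in HOM-7835, 1179.7 in HOM-7893, 1001 in HOM-7899 and 798 in HOM-7901, and at 1637 in WT-7782, 1578 in WT-7783, 2221 in WT-7785 and 1521 in WT-7943. HOM-7835 lay among the WT animals and the other 3 HOM animals below all of them. HET animals were at 1124 to 1809 TPM and overlapped both groups. P2ry12 in HOM against WT was -0.63 (SE 0.20, limma adjusted p = 0.123).

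P2ry13 was at 776 TPM in HOM-7835, 669 in HOM-7893, 641 in HOM-7899 and 517 in HOM-7901, and at 844 in WT-7782, 785 in WT-7783, 1025 in WT-7785 and 727 in WT-7943. The order of the HOM animals was the one seen for P2ry12, and again 1 HOM animal lay within the WT range. The change was -0.38 (SE 0.14, limma adjusted p = 0.179). With each library centred on its median both were called in HOM against WT, P2ry12 at -0.71 (limma adjusted p = 0.0353) and P2ry13 at -0.45 (adjusted p = 0.0318), where 609 of 11792 genes were called. In HOM against HET neither ADP receptor was called, with P2ry12 at -0.35 (adjusted p = 0.503) and P2ry13 at -0.18 (adjusted p = 0.679). Per 1000 TPM of microglia markers, P2ry12 stood at 23.6 ± 5.27 in HOM and 32.2 ± 5.77 in WT, and P2ry13 at 13.5 ± 1.73 and 15.6 ± 2.098, with overlap for both.

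The RPKM tables (reads per kilobase and M alignments), made by the authors with other steps, gave nearly the same changes with smaller errors for the ADP receptors. In HOM against WT at 17 months P2ry12 was -0.62 (limma adjusted p = 0.0429), P2ry13 -0.36 (adjusted p = 0.0636) and Gpr34 -0.82 (adjusted p = 0.0172). In RPKM 2 of the 10 receptors were therefore called, where 8.34% of 11173 genes tested were called (1.94% lower), and in HOM against HET Gpr34 alone (-0.74, adjusted p = 0.0230), where 2.68% were called (0.322% lower). The animals did not overlap in RPKM for Gpr34 (164 to 231 in HOM and 278 to 429 in WT) and P2ry13 (317 to 436 and 440 to 585), where all 4 HOM animals were lower for 4.14% of genes.

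**Figure D3:**
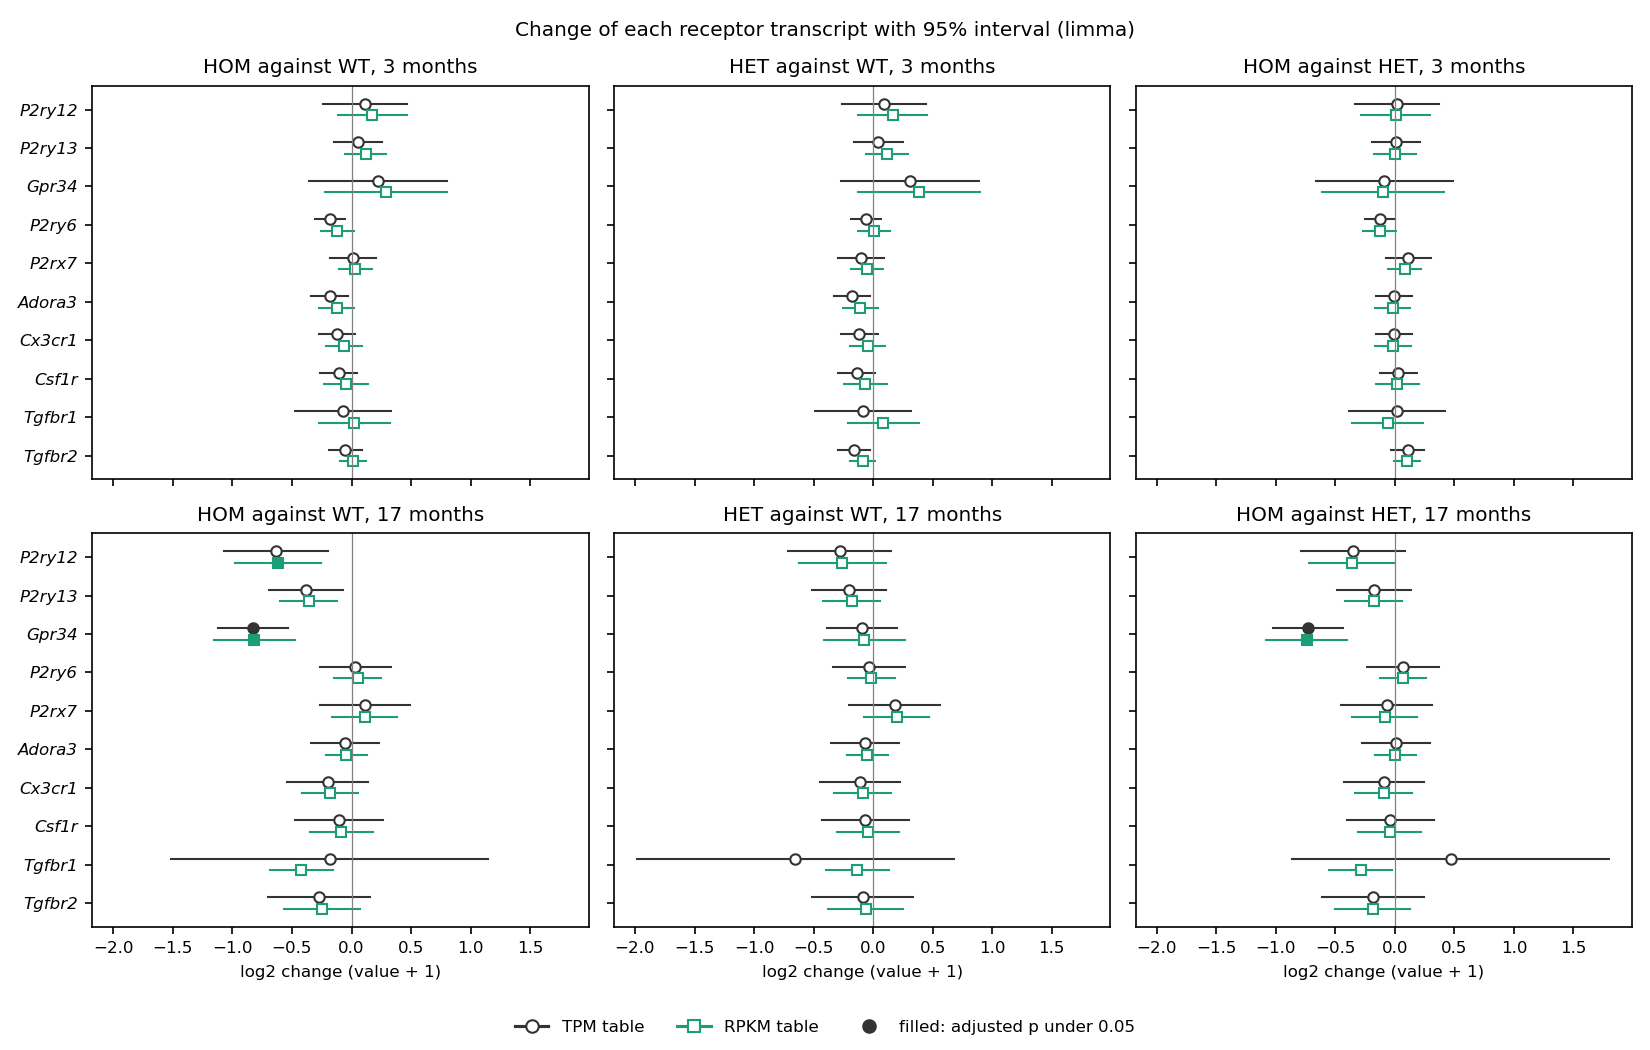
Change of each receptor in 6 comparisons, in log2(value + 1) with 95% intervals from limma, from the TPM (circles) and the RPKM tables (squares), with a filled symbol at an adjusted p under 0.05. In the HOM comparisons of 17 months Gpr34 lies at -0.83 against WT and -0.73 against HET in TPM, and the TPM interval of Tgfbr1 is much wider than its RPKM interval.

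The remaining purine receptors did not pass the test at 17 months. P2ry6 was at 207 ± 15.6 TPM in HOM and 203 ± 24.7 in WT (SD, n = 4 each), a change of 0.03 with a 95% interval of -0.27 to 0.33. P2rx7 was at 122 ± 16.0 and 113 ± 18.5 TPM, a change of 0.11 (interval -0.27 to 0.49), and Adora3 at 74.0 ± 6.28 and 77.1 ± 9.41 TPM, a change of -0.06 (interval -0.34 to 0.23). These intervals leave room for changes in either direction, and all 3 genes overlapped between the groups.

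The chemokine and growth factor receptors were not called either. Cx3cr1 stood at 2002 ± 295 TPM in HOM and 2299 ± 318 in WT at 17 months, a change of -0.20 (SE 0.16, limma adjusted p = 0.545). Csf1r stood at 3447 ± 464 and 3713 ± 553 TPM, a change of -0.11 (SE 0.17, adjusted p = 0.798). HOM and WT animals overlapped for both. Tgfbr2, the ligand-binding TGF-beta receptor, was at 179.8 ± 39.6 TPM in HOM and 215 ± 33.7 in WT, a change of -0.27 (SE 0.20, adjusted p = 0.511).

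Tgfbr1, its signalling partner, was the receptor on which the tables differed. In TPM it ran from 47.0 to 98.7 in HOM, from 8.42 to 124 in HET and from 57.2 to 126 in WT animals of 17 months, a HOM against WT change of -0.18 with an SE of 0.62. HET-7796 held 8.42 TPM but 135 RPKM. In RPKM the HOM animals ran from 111 to 155, the HET from 135 to 174 and the WT from 151 to 182, a change of -0.42 (SE 0.12, limma adjusted p = 0.0512). The TPM to RPKM ratio of Tgfbr1 varied 11.7-fold across the old animals, against 1.29 to 1.32-fold for the other 9 receptors, and 0.917% of 10365 genes varied at least as much as Tgfbr1. At 3 months the ratio of Tgfbr1 varied 1.33-fold, and 14.04% of genes varied as much. The median ratio at 3 months was 0.883 for Tgfbr1, and from 2.05 (Tgfbr2) to 3.01 (P2rx7) for the other 9 receptors. The Tgfbr1 level in TPM at 17 months is therefore uncertain, and so is its place among the receptors at 3 months.

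**Figure D4:**
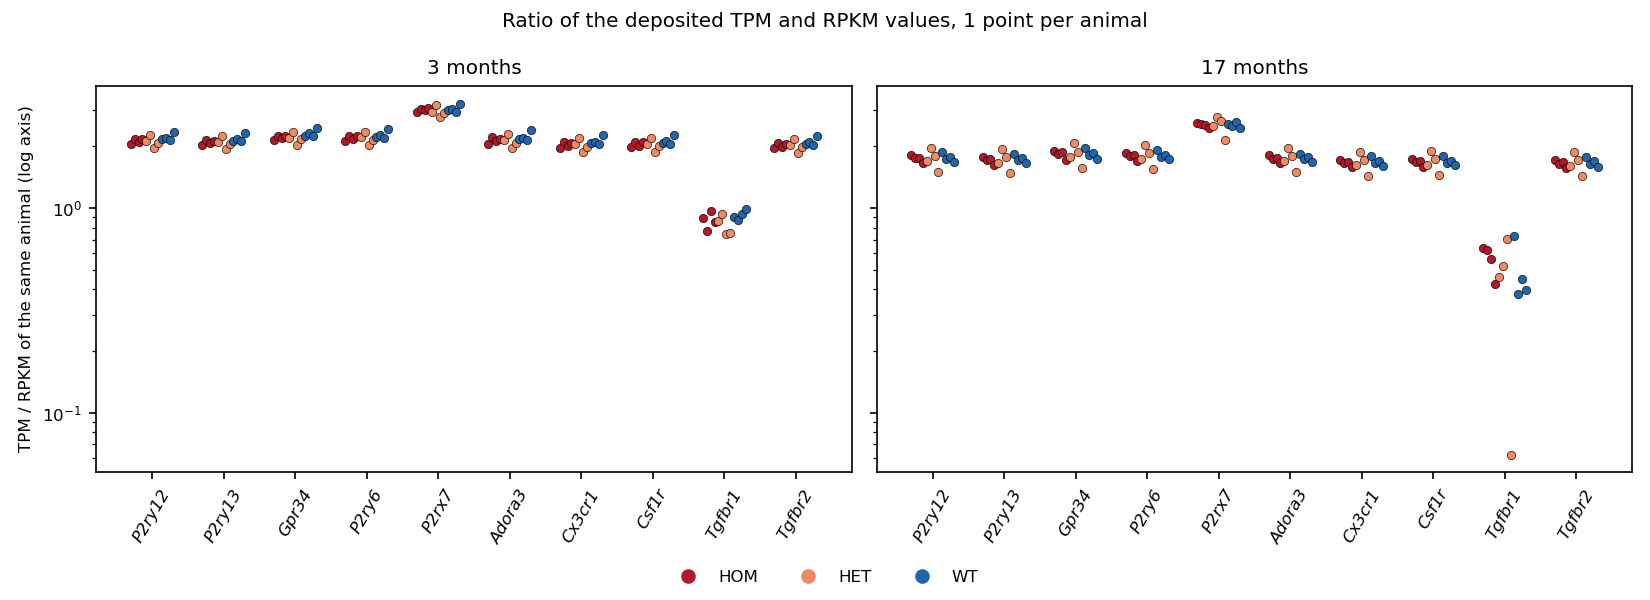
TPM divided by RPKM of the same animal for each receptor at each age, on a log axis, with 1 point per animal ordered HOM, HET, WT. Across the old animals 9 receptors keep a ratio within 1.32-fold, while Tgfbr1 varies 11.7-fold. For Tgfbr1 HET-7796 is at 0.0624, and the other old animals run from 0.378 (WT-7783) to 0.732 (WT-7782).

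At 3 months no receptor was called in any comparison by limma. The count was 0 of 10 in HOM against WT, HET against WT and HOM against HET, where 0.0604%, 0.0432% and 0.0259% of 11587 genes were called. At an unadjusted p under 0.05 the counts were 2, 2 and 0, beside 19.7%, 21.6% and 8.55% of all genes. In RPKM 0 receptors were called in each, beside 0.0557%, 0.00928% and 0.00928% of all genes. The RPKM counts at an unadjusted p under 0.05 were 0 in each, beside 12.4%, 14.9% and 6.79% of all genes. P2ry6 was the one receptor whose young HOM animals all lay below WT, at 242 TPM in HOM-8282, 243 in HOM-8285, 251 in HOM-8286 and 248 in HOM-8287, against 252 in WT-8322, 295 in WT-8323, 281 in WT-8325 and 289 in WT-8326. HOM-8286 and WT-8322 lay close together, and all 4 HOM animals were lower for 15.1% of all genes in this comparison. P2ry6 was at -0.18 (SE 0.06, limma adjusted p = 0.149), beside a median of -0.10 over all genes. It overlapped between the groups in RPKM. Adora3 was at 100.2 ± 5.76 TPM in HOM and 114 ± 8.40 in WT (-0.18, adjusted p = 0.193).

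Gpr34 and P2ry12 were variable among young animals of every genotype. Gpr34 was at 1457 TPM in HOM-8285, 1571 in HET-8303, 1287 in HET-8302 and 1232 in WT-8326, and between 706 and 947 TPM in the other 8 animals. P2ry12 was highest in the same 4 animals, at 2953 TPM in HOM-8285, 3183 in HET-8303, 2741 in HET-8302 and 2913 in WT-8326. All 4 were male by Y-linked transcripts, but 3 other young males (HOM-8282, HET-8304 and HET-8309) held 748 to 773 TPM of Gpr34. At this age Gpr34 was at 1015 ± 307 TPM in HOM, 1098 ± 399 in HET and 867 ± 245 in WT, and HOM against WT was 0.22 (SE 0.27, limma adjusted p = 0.676).

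**Figure D5:**
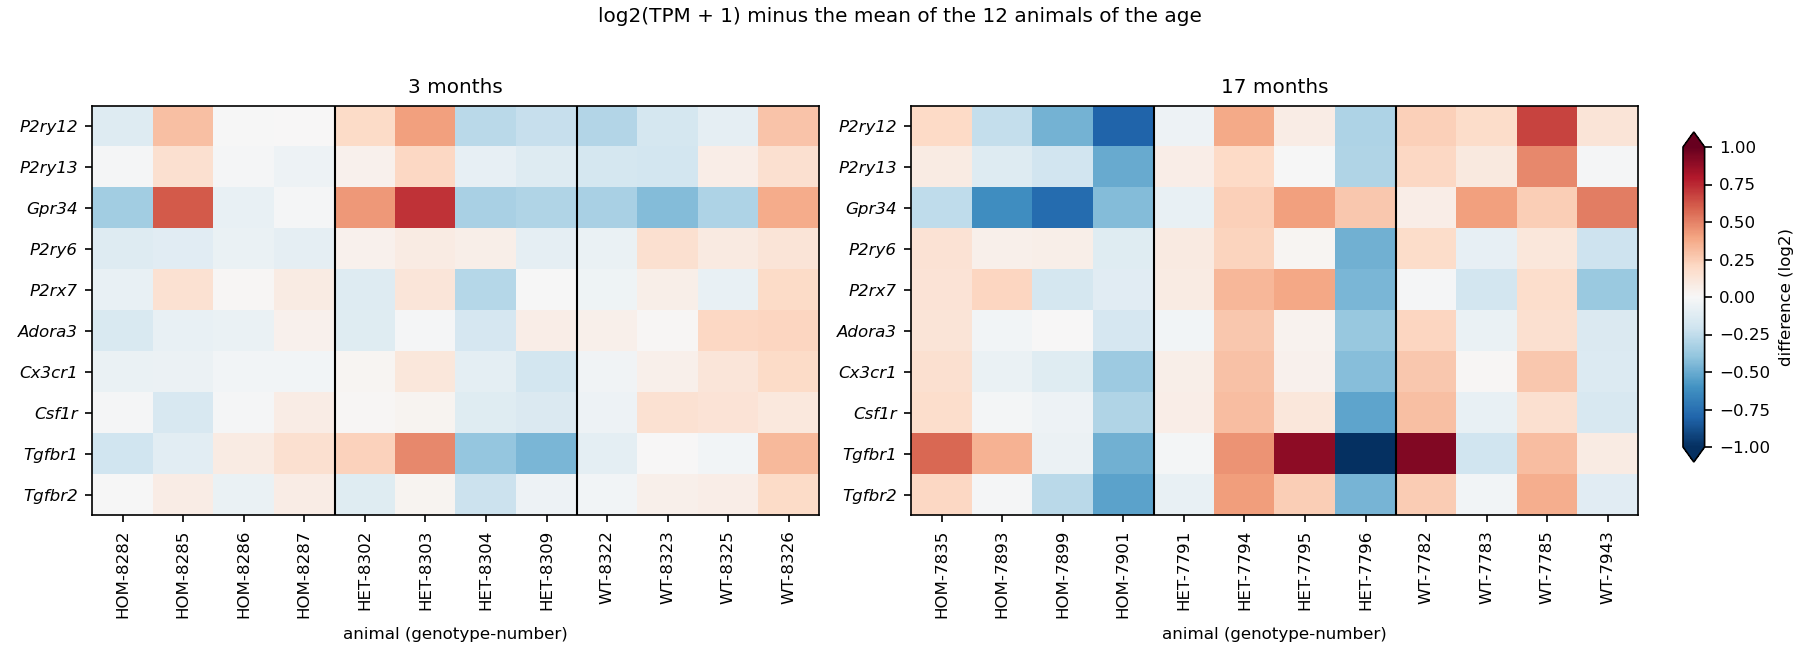
Each receptor's log2(TPM + 1) minus its mean over the 12 animals of an age, by animal, with genotypes ordered HOM, HET, WT; red is above and blue below the mean, and colours end at 1 and -1. Gpr34 is high in HOM-8285, HET-8302, HET-8303 and WT-8326 at 3 months and below the mean in all 4 HOM animals at 17 months, and HET-7796 and HOM-7901 are low for most receptors.

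At 17 months the receptors also shared differences between single animals. HET-7796, which had the lowest sum of listed TPM, was the lowest of 12 animals for 6 of the 10 receptors, and HOM-7901 for 3. HET-7794 was the highest for 5. Gpr34 did not follow this order, since HET-7796 at 630.1 TPM was among the higher animals and HOM-7899, not HOM-7901, was lowest.

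Whether the genotype effect differed between the ages was tested over all 24 animals as the HOM against WT change at 17 months minus that at 3 months. In TPM 0 of 10 receptors were called by limma, where 0.254% of 11436 genes were called, and 3 had an unadjusted p under 0.05, as had 21.8% of all genes. These were Gpr34 at -1.05 (SE 0.31, adjusted p = 0.0803), P2ry12 at -0.74 (SE 0.27, adjusted p = 0.124) and P2ry13 at -0.43 (SE 0.18, adjusted p = 0.162). The median over all genes was 0.16 in this contrast. With each library centred on its median, 454 of 11436 genes were called. The limma values there were -1.23 for Gpr34 (adjusted p = 0.0344), -0.93 for P2ry12 (adjusted p = 0.0289) and -0.62 for P2ry13 (adjusted p = 0.0173). In RPKM the same 3 were called, where 5.23% of 10623 genes were called (1.01% lower), at -1.10 (adjusted p = 0.0382), -0.79 (adjusted p = 0.0443) and -0.48 (adjusted p = 0.0482). For HET against WT 0 receptors were called by limma in TPM, where 0.691% of genes were called. There 0 had an unadjusted p under 0.05, beside 14.4% of genes. In RPKM 0 were called, beside 1.08% of genes, and 1 had an unadjusted p under 0.05, beside 16.6% of genes. By Y-linked transcripts the 4 young HET animals were male and the 4 old ones female, so this contrast mixes age with sex.

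Levels at the 2 ages stand in separate tables and are set side by side as a description, with no test. In WT animals Gpr34 at 17 months stood at 0.753 of its level at 3 months, P2ry12 at 0.752 and P2ry13 at 0.748, close to the median of 0.766 over all genes. In HOM animals Gpr34 stood at 0.363, P2ry12 at 0.460 and P2ry13 at 0.557, beside a median of 0.846. HET animals lay between, at 0.556 for Gpr34, 0.576 for P2ry12 and 0.630 for P2ry13, beside a median of 0.794. Csf1r was at 0.569 in HOM and 0.568 in WT. The 4 old animals were all below the 4 young ones for 10 of 10 receptors in HOM, 8 in HET and 6 in WT, beside 43.1%, 26.9% and 51.2% of all genes. In RPKM the counts were 6, 5 and 4 of 10 in the same order, beside 15.9%, 12.9% and 28.1% of all genes. Young HET animals were all male and old ones all female, so age and sex cannot be told apart in HET. In RPKM the ratio was 0.440 in HOM, 0.683 in HET and 0.960 in WT for Gpr34. The medians over all genes were 1.02, 0.948 and 0.952 in the same order.

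The wider pathways of these receptors were followed with 4 lists holding 88 genes, of which 68 were tested at 3 months and 76 at 17. In TPM 0 of them were called by limma in HOM against WT at either age. At an unadjusted p under 0.05 were 12 (17.6%) at 3 months and 18 (23.7%) at 17 months, beside 19.7% and 18.6% of all genes. In RPKM 8 of 68 were called in HOM against WT at 17 months, 5 higher and 3 lower, a share of 11.8% beside 8.34% of all genes, and 0 of 65 at 3 months. In TPM 3 of 76 were called in HOM against HET at 17 months, all higher, a share of 3.95% beside 1.86% of all genes.

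Among purinergic enzymes and other purine receptors (23 listed, 14 tested at 17 months) the median change in old HOM against WT was 0.17, beside 0.05 over all genes. Slc29a2, a nucleoside transporter, stood at 3.64 ± 0.367 TPM in HOM and 2.27 ± 0.663 in WT (0.53, limma adjusted p = 0.115), and was called in RPKM (0.45, adjusted p = 0.0429). Adora2b, an adenosine receptor, stood at 1.53 ± 0.925 TPM in HOM and 0.658 ± 0.208 in WT (0.55, adjusted p = 0.184). P2rx1, an ATP-gated channel, was called where the HET against WT change was compared between ages (0.81, limma adjusted p = 0.0404). It was at 11.1 ± 3.12 TPM in HET and 17.4 ± 1.07 in WT at 3 months, and at 17 months it stood at 8.87 ± 0.643 TPM in HET and 7.71 ± 0.442 in WT. All 4 young HET animals were male and all 4 old ones female, so age and sex cannot be told apart in HET. At 3 months the genes of this list with the smallest p in HOM against WT were the nucleoside transporter Slc29a1 (-0.18, adjusted p = 0.129) and adenosine kinase, Adk (-0.23, adjusted p = 0.232).

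Among TGF-beta ligands, activators and signalling genes (24 listed, 23 tested at 17 months) Tgfbr3, a co-receptor, and the ligand Tgfb2 were higher by TPM in old HOM than HET animals. Tgfbr3 stood at 2.16 ± 0.490 TPM in HOM, 0.832 ± 0.200 in HET and 1.19 ± 0.274 in WT (HOM against HET 0.78, limma adjusted p = 0.0205). Tgfb2 stood at 2.00 ± 0.265, 0.747 ± 0.331 and 1.23 ± 0.436 TPM in the same order (0.80, adjusted p = 0.0404). Both are low transcripts in this preparation, near the 1 TPM added before the logarithm. In RPKM no gene of this list was called in HOM against HET at 17 months. The smallest p there was that of Itgav (-0.28, limma adjusted p = 0.215). Endothelial and mural markers summed to 368 to 488 TPM in HOM, against 154 to 236 in HET, and their part was not tested. Against WT, Tgfbr3 was at 0.53 (adjusted p = 0.108) and the ligand Tgfb3 at -0.67 (adjusted p = 0.111). In RPKM Tgif1, a repressor of TGF-beta responses, was higher (0.39, adjusted p = 0.0494) and Itgav, an integrin subunit that helps activate TGF-beta, lower (-0.44, adjusted p = 0.0429) in old HOM than WT animals. At 3 months Eng, a co-receptor, was at 112 ± 11.2 TPM in HOM and 151 ± 11.95 in WT (-0.44, adjusted p = 0.0815), and the receptor Acvrl1 at -0.56 (adjusted p = 0.130).

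Among CSF1R ligands and signalling genes (19 listed, 19 tested at 17 months) none was called in TPM in any comparison, with 2 called in RPKM comparisons through Csf1 alone. Csf1 stood at 37.8 ± 7.71 TPM in HOM, 59.8 ± 8.34 in HET and 39.0 ± 7.75 in WT at 17 months, and in RPKM HOM against HET was -0.66 (limma adjusted p = 0.0387). In old HOM against WT the smallest p values in TPM were those of the adaptors Grb2 (0.73, adjusted p = 0.155) and Tyrobp (-0.19, adjusted p = 0.267). At 3 months they were those of the kinases Akt1 (-0.70, adjusted p = 0.160) and Pik3cd (-0.18, adjusted p = 0.198).

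Among genes of G protein signalling downstream of Gi-coupled receptors (22 listed, 20 tested at 17 months), to which the fractalkine gene was added, Cx3cl1 stood at 7.35 ± 1.41 TPM in old HOM, 2.82 ± 0.449 in HET and 4.46 ± 0.712 in WT. HOM against HET was 1.12 (SE 0.15, limma adjusted p = 0.00234), and HOM against WT 0.60 (adjusted p = 0.0736), called in RPKM (0.57, adjusted p = 0.0365). Endothelial and mural markers summed to 368 to 488 TPM in old HOM, 154 to 236 in HET and 250 to 323 in WT animals. Neuron markers (9 genes found) overlapped, at 8.60 to 27.1, 10.6 to 27.1 and 11.2 to 63.1 TPM in the same order. The part of other cells in the change of Cx3cl1 was not tested. Gnai1, a Gi subunit, was at 0.814 ± 0.175 TPM in old HOM and 2.25 ± 1.12 in WT (-0.79, adjusted p = 0.0911). In RPKM, old HOM against WT also had higher Pik3r5 (0.38, adjusted p = 0.0224), a PI3-kinase subunit that G proteins act on, and Grk6 (0.40, adjusted p = 0.0273), a kinase that desensitizes receptors. Gng2, a G protein subunit (-0.31, adjusted p = 0.0301), and Rgs10, a G protein regulator abundant in microglia (-0.26, adjusted p = 0.0473), were lower there. At 3 months the smallest p values in HOM against WT were those of Pik3r5 (-0.22, adjusted p = 0.132) and Rgs19 (-0.13, adjusted p = 0.193).

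The genes whose levels followed the mean profile of the receptors most closely were found by the lower of the Pearson correlations over the 12 animals of each age. Among the 5 closest were Tbc1d15 (0.952), March6 (0.947), Smchd1 (0.937) and Bzw1 (0.933). All values of an animal come from 1 library and share its depth and scaling, so these correlations are a description. At 17 months the profile also includes Tgfbr1, whose TPM level is uncertain. In HET-7796 Tgfbr1 lay at -2.83 from its mean over the 12 animals, in log2(TPM + 1). The mean of this measure over the receptors was -0.592 in HET-7796, the lowest of the 12 animals. Whether the same genes rank closest without Tgfbr1 was not tested. Tbc1d15, a regulator of Rab GTPases, stood at 12.97 ± 1.91 TPM in HOM and 15.5 ± 1.36 in WT at 17 months, and at 3 months at 21.7 ± 1.57 TPM in HOM and 23.3 ± 2.33 in WT (SD, n = 4 each).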

How the data were processed

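The data are bulk RNA-seq of CD11b-enriched microglia from 24 mice. The authors deposited TPM for 20636 genes per age and RPKM for 18721 genes (3 months) and 19210 genes (17 months). The build was mm10, and the tools were Salmon 0.8.2, Partek 7.17.0918, DESeq2 and TopHat2 2.1.1, per the submitters' processing notes. Which tool made which table is not given in the sources used here. No counts were analysed here. TPM columns carry animal numbers, which the RPKM file headers pair with genotypes, and "hemi" in the 17-month headers was taken as HET. TPM scales each library to a total, so 1 abundant group of transcripts shifts all others, and depth enters RPKM through the alignment total.

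Tests used limma 3.58.1 in R 4.3.3 on log2(TPM + 1), with a mean per genotype, a trend, two-sided p and Benjamini-Hochberg adjustment over every gene whose mean reached 1 TPM. Calls needed an adjusted p under 0.05. Fold changes on this scale understate changes of low genes. The fit of each age held its 12 animals, and the difference of effects between ages all 24. It was tested on simulated data. Each column has its own animal number, and litters and batches are not labelled. No pair of libraries looked like copies (smallest SD of the log2 difference 0.226 at 3 months and 0.263 at 17). Sex was read from Y-linked TPM with a limit of 5.

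The members and lists were chosen with earlier results of these data known. All 10 receptors are described. Pathway genes are named if called in a comparison, and otherwise the 2 with the smallest p in HOM against WT of each age. The list genes called in RPKM alone were added after their values were seen. The genes most like the receptors are the 5 with the highest lower correlation, of which 1 is not reported here. The alternatives tried were another pseudocount (0.1), another filter (none, or 5 TPM), RPKM, quantile and median scaling, a sex term, fits of only the compared genotypes, and leaving out each animal.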

Additional observations from a re-analysis of the deposited data

Results flagged for a closer look

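In P2ry12 at 17 months WT-7785 stood apart at 2221 TPM, with the other WT animals at 1521 to 1637. In Gpr34 at 3 months WT-8326 stood apart at 1232 TPM, with the other WT animals at 706 to 769. Chance marks about 1 in 20 groups of 4 in this way. In the RPKM tables the HOM against WT change differed between ages by limma for P2ry12 (-0.79), P2ry13 (-0.48) and Gpr34 (-1.10). WT-8326 is 1 of the libraries in that contrast. Without it, the Gpr34 difference in TPM was -1.23 (limma adjusted p = 0.0453).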

How the results depend on the processing

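In HOM against WT at 17 months the count of receptors called was 1, and it was 0 with no filter on low values, 2 in RPKM, 3 with median centring, 0 with a sex term and 4 in RPKM with median centring (an alternative chosen after seeing the data). Leaving out 1 animal gave 0 to 1. In HOM against HET at 17 months the count of 1 was 0 with a sex term, and 0 to 1 without 1 animal. In the difference of the HOM effect between ages the count of 0 was 3 in RPKM, 3 with median centring, 3 in RPKM with median centring and 1 without HET-7796 and WT-7782 together (the last 2 chosen after seeing the data), and 0 to 1 without 1 animal, with the 1 call made without WT-8326. Counts of all genes called moved too. In HOM against WT at 17 months 84 genes were called in TPM, 11 with no filter and 5 with a sex term. The count was 609 with median centring, 932 in RPKM and 791 in RPKM with median centring. In HOM against HET at 17 months it was 219 in TPM and 45 with a sex term. In the difference of the HOM effect between ages it was 29 in TPM, 556 in RPKM and 454 with median centring. There it was 451 in RPKM with median centring and 1485 without HET-7796 and WT-7782 together. Across the 80 receptor changes and 2030 values under an alternative, 2001 stayed on their side of the threshold. A call was lost in 12 and gained in 17, and 0 changes called in either setting turned sign. Most of the 2001 were uncalled changes that stayed uncalled. The only calls as reported were those of Gpr34 at 17 months. Against WT the HOM call was kept in 15 alternatives and lost in 8, and against HET kept in 19 and lost in 4. Uncalled changes did turn sign, such as Gpr34 in HOM against HET at 3 months, from -0.28 to 0.11 without 1 animal. The cause of these moves was not tested.

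No paired analysis was possible because the columns carry animal numbers and not the replicate numbers of the labels, and nothing in the labels ties those numbers to a shared litter, batch or day. With 4 animals a group, and with old libraries of 16.7 (WT-7782) to 46.4 M alignments, precision is limited.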
